A study of Schmidtea mediterranea with 48 samples.

Results

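The comparison described here set planarians treated with RNA interference (RNAi) against sox8 directly against planarians treated with RNAi against pax5, both on day 6. Its members are the 22667 of 28413 measured features, or 79.8%, whose mean over all 48 libraries of the study reached 0.5 RPKM (read counts scaled by feature length and library depth). The sox8 group had 4 libraries, the pax5 group had 4, and the 4 day 6 libraries of the unc22 control are given as the level without either knockdown. All groups were whole adults of Schmidtea mediterranea from the clonal line CIW4, fed double-stranded RNA made in HT115 bacteria and mixed into calf liver paste, at 3 feedings that were 3 days apart. The day 12 and day 18 libraries of the same RNAi treatments, and those of zfp1 RNAi, served to follow the features that separated sox8 from pax5 libraries on day 6. They also entered the filter and the estimate of each feature's spread, since all groups were fitted in 1 model. The labels do not say whether a replicate was 1 worm, a pool or a repeated library, so the p-values reflect the spread among libraries alone, and part of that spread may be technical.

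Planarians replace all their tissues throughout life from adult stem cells called neoblasts, whose progeny pass through transient progenitor stages before they reach, for example, the epidermis. Sox proteins bind DNA through a high-mobility-group box and Pax proteins through a paired box, and members of both families set cell fates in animals. In vertebrates Sox8 belongs to the SoxE group, and Pax5 is known for its role in B cells. In planarians zfp1 encodes a zinc finger protein that the epidermal lineage needs, and unc22, a nematode muscle gene, was the target of the control double-stranded RNA. A direct comparison of sox8 with pax5 RNAi shows what differs between the knockdowns when feeding, bacteria and time are the same in both.

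The table pairs none of its SMED30 identifiers with a gene name. The levels of sox8 and pax5, which would check the knockdowns, and the markers of planarian cell types could therefore not be read, and features are given by identifier without a role. Recovered depth was 6894458 to 26514649 reads per sox8 library, 23372153 to 65663283 per pax5 library and 10258492 to 29072387 per unc22 library. The sox8 group held the shallowest library of the study, its replicate 2, and this library stood at -3.21 SD on a component that held 17.2% of the variance within the day 6 groups. On a larger component, with 22.5% of that variance, the libraries over 1 SD in the compared groups were sox8 replicates 3 (1.02) and 4 (-1.34) and pax5 replicate 3 (1.45). In bulk RNA of whole worms, fewer cells of a type and less RNA per cell cannot be told apart.

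On day 6, features that differed between the knockdowns were mostly higher in sox8 than in pax5 libraries. Limma called 851 features at an adjusted p under 0.05, which is 3.75% of those tested. Of these, 628 (2.77% of those tested) were higher and 223 (0.984%) were lower in sox8 libraries, so that 73.8% of the called features were higher. With a difference of at least 2-fold also required, 125 features (0.551%) were higher and 28 (0.124%) were lower. The median difference over all tested features was -0.00 on the log2 scale. At an unadjusted p under 0.05 there were 2749 features.

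The 2-fold differences ranged widely in size. All differences and folds here are on the scale of log2(RPKM + 0.5), which understates the change of low features. On this scale the 125 higher features ran from 1.01 to 5.76, with quartiles of 1.26 and 2.06. At least 4-fold differences were found for 34 features and at least 8-fold differences for 3. The 28 lower features ran from -3.16 to -1.02, with 10 at least 4-fold lower and 1 at least 8-fold lower. In 24 of the 125 the pax5 mean was under 0.5 RPKM, and in 8 of the 28 the sox8 mean was. The members nearest to the 2-fold limit lay at 1.01 and -1.02, and the called features just short of it at 0.99 and -0.99.

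The libraries of the compared groups did not overlap for 123 of the 125 and for all 28 of the 2-fold features. Over all called features this held for 543 of the 628 higher and 182 of the 223 lower ones, against 1386 of the 22667 tested features (6.11%). These counts come from the same libraries as the calls and are given as a description.

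**Figure D1:**
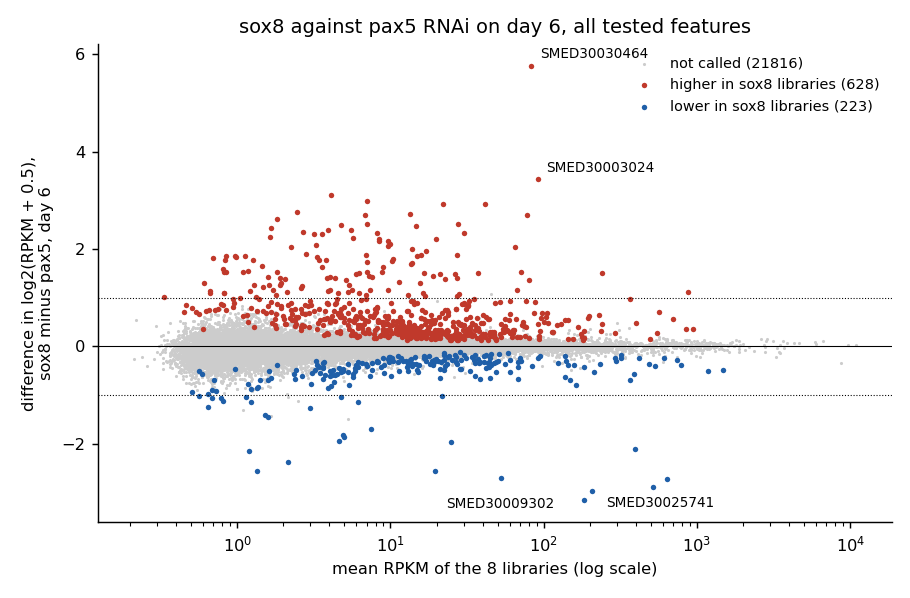
The plot shows each of the 22667 tested features on day 6, with the mean RPKM of the 8 sox8 and pax5 libraries on the x axis (log scale) and the sox8 minus pax5 difference in log2(RPKM + 0.5) on the y axis. Red points are the 628 features called higher in sox8 libraries, blue points the 223 called lower, grey points the rest, and dotted lines mark 2-fold differences. The largest positive differences reach 5.76 and 3.44, and the largest negative ones, -3.16 and -2.96, belong to features of high level.

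Called features were found at all levels, but their direction varied with it. Among the 6855 features with a mean of 0.5 to 2 RPKM, 56 were called higher and 27 lower. Among the 6798 features from 2 to 10 RPKM, 212 were higher and 66 lower. Among the 7803 features from 10 to 100 RPKM the counts were 325 and 100. At 100 RPKM and above, 35 of 1211 features were called higher and 30 lower, so higher features outnumbered lower ones least at the top of the range. The 2-fold features followed the same course, with 24 higher and 12 lower in the lowest of these ranges and 5 each in the highest. Median inferred lengths were 859 bases for the 125 features, 605.5 bases for the 28 and 1098 bases for all tested features.

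The feature with the largest positive difference was SMED30030464. It stood at 186, 129.8, 232 and 108 RPKM in the sox8 libraries, 1.69, 4.58, 2.22 and 1.81 RPKM in the pax5 libraries, and 63.7, 87.2, 75.7 and 79.8 RPKM in the unc22 libraries. All sox8 libraries lay above all unc22 libraries, and all pax5 libraries lay far below both. The difference between sox8 and pax5 libraries was 5.76 ± 0.33 (SE) on the log2 scale, or 54.4-fold (limma, adjusted p = 6.84e-17).

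SMED30003024, with the next largest positive difference, had 170.3, 169.7, 180.2 and 148 RPKM in the sox8 libraries, against 10.5, 12.7, 18.2 and 20.2 RPKM in the pax5 libraries. Its unc22 libraries held 149, 160.4, 184 and 171 RPKM, within the range of the sox8 libraries except at 184. The mean level was 167 ± 13.6 RPKM in sox8, 15.4 ± 4.55 RPKM in pax5 and 166 ± 15.3 RPKM in unc22 libraries (SD, n = 4 each). The difference between sox8 and pax5 was 3.44 ± 0.15 (SE), or 10.9-fold (limma, adjusted p = 7.07e-22).

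The largest negative difference was that of SMED30009302. Its levels were 35.7, 44.8, 43.2 and 24.6 RPKM in sox8 libraries, 319.6, 325, 323 and 342 RPKM in pax5 libraries and 357, 376, 365 and 418 RPKM in unc22 libraries. The sox8 libraries were all far below the rest, while the pax5 libraries lay just below the lowest unc22 library. The sox8 minus pax5 difference was -3.16 ± 0.17 (SE), or 8.95-fold lower (limma, adjusted p = 1.2e-18).

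SMED30025741 came next, with 35.5, 46.7, 74.4 and 36.7 RPKM in sox8 libraries and 351, 374, 387 and 341 RPKM in pax5 libraries. Here the unc22 libraries, at 794, 816, 789.6 and 885 RPKM, lay above both knockdowns. The sox8 minus pax5 difference was -2.96 ± 0.27 (SE), or 7.79-fold lower (limma, adjusted p = 5.86e-11). Against unc22 the differences were -4.14 in sox8 (limma, adjusted p = 3.59e-14) and -1.18 in pax5 libraries (limma, adjusted p = 0.00409), so it was called lower after both.

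To see which knockdown set each called feature apart, features were placed by the knockdown whose mean lay farther from the unc22 mean. The placement uses the same day 6 libraries as the calls, and both differences from unc22 share the unc22 libraries, so it describes the called features and is not tested. In the largest class, pax5 lay farther and below unc22: 560 of the 851 features, with a median difference from unc22 of 0.03 in sox8 and -0.54 in pax5 libraries. In 172 features pax5 lay farther and above, with medians of -0.00 in sox8 and 0.37 in pax5. In 68 features sox8 lay farther and above (0.16 in sox8, -0.07 in pax5), and in 51 sox8 lay farther and below (-0.49 in sox8, 0.09 in pax5). Among the 2-fold features the classes were more unequal. Of the 125 higher features 124 had pax5 below unc22 and 1 had sox8 above, and of the 28 lower features 15 had sox8 below and 13 had pax5 above.

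**Figure D2:**
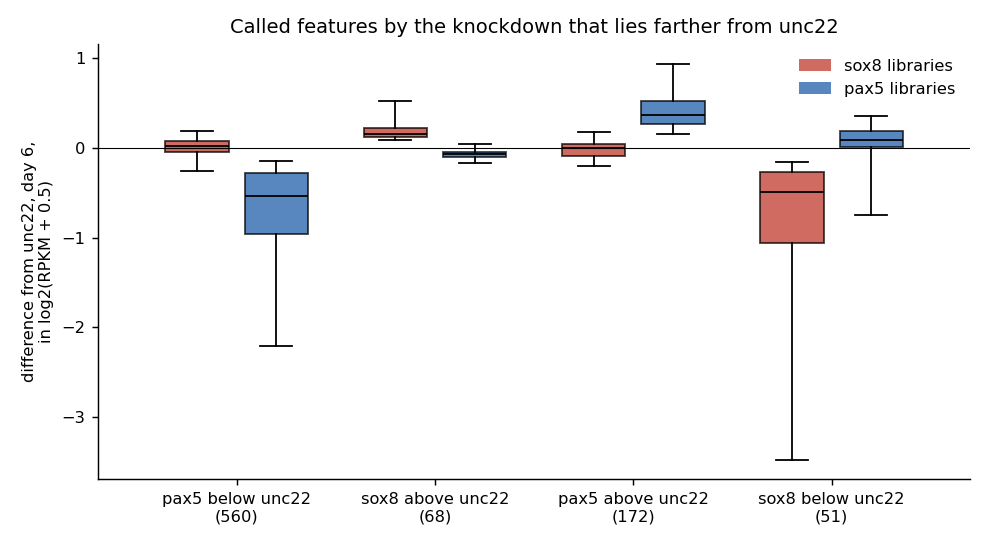
The plot shows, for the called features in each of the 4 placements, the day 6 difference from unc22 in log2(RPKM + 0.5) on the y axis, in sox8 libraries (red) and pax5 libraries (blue). Boxes give the median and quartiles, whiskers the 5th to 95th percentile. In the class of 560 features the sox8 box lies near 0 and the pax5 box below it, with a median of -0.54.

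Each knockdown was also set against unc22 by itself. Here limma called 85 features higher (0.375%) and 90 lower (0.397%) after sox8 RNAi, and 554 higher (2.44%) and 607 lower (2.68%) after pax5 RNAi. Of the 560 features with pax5 below unc22, 469 were called lower in pax5, and of the 172 with pax5 above, 141 were called higher in pax5. Of the 51 with sox8 below unc22, 20 were called lower in sox8, and of the 68 with sox8 above, 9 were called higher in sox8, so most features of both sox8 classes did not pass the test against unc22. At 2-fold, all 124 features of the class with pax5 below unc22 were called lower in pax5, and in sox8 libraries 2 of them were called higher and 4 lower. Of the 15 features with sox8 below unc22, 13 were called lower in sox8, and in pax5 libraries 4 were called lower and 2 higher. Of the 13 features with pax5 above unc22, 12 were called higher in pax5 and 0 were called in sox8 libraries. No p for a comparison of these counts is given, since the comparisons share the unc22 libraries and the features were chosen from the same libraries.

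The features with pax5 below unc22 are led, after the pair named first, by SMED30011854 and SMED30016988. SMED30011854 had 7.88, 9.40, 6.51 and 7.26 RPKM in sox8 libraries, 0.444, 0.487, 0.393 and 0.471 RPKM in pax5 libraries, and 7.10, 5.84, 8.39 and 7.94 RPKM in unc22 libraries. The sox8 and unc22 libraries overlapped, and the pax5 libraries lay apart at 10 to 29 reads each. The difference was 3.11 ± 0.14 (SE), or 8.65-fold in RPKM + 0.5 (limma, adjusted p = 5.48e-21). With pax5 levels this low, that fold understates the ratio of the RPKM values.

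SMED30016988 had 12.1, 14.6, 13.5 and 11.5 RPKM in sox8 libraries, against 1.03, 0.964, 1.75 and 1.13 RPKM in pax5 libraries and 11.0, 13.0, 14.4 and 13.0 RPKM in unc22 libraries. Again the sox8 and unc22 values overlapped. The sox8 minus pax5 difference was 2.98 ± 0.11 (SE), or 7.9-fold (limma, adjusted p = 2.29e-24).

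The 15 features with sox8 below unc22 include some of the most abundant among the 2-fold features. Their median unc22 level was 27.2 RPKM, against 9.12 RPKM for the 124 features with pax5 below unc22 and 1.37 RPKM for the 13 with pax5 above. The median over all tested features was 6.04 RPKM. An unc22 level over 100 RPKM was found for 6 of the 15, 8 of the 124, 0 of the 13 and 1171 of all 22667. The median sox8 minus pax5 difference was -2.14 for the 15, against -1.26 for the 13. SMED30002134 had 96.0, 111, 194 and 103 RPKM in sox8 libraries, 884, 909.5, 932 and 880.1 RPKM in pax5 libraries and 1988, 2030.4, 2003 and 2253 RPKM in unc22 libraries. The levels fell into separate ranges by group, lowest in sox8, and the sox8 library with 194 RPKM, replicate 3, stood above its group. The difference between sox8 and pax5 was -2.89 ± 0.25 (SE), or 7.43-fold lower (limma, adjusted p = 1.87e-11).

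SMED30014876 had 139.8, 184, 224 and 137 RPKM in sox8 libraries, 1068, 1094, 1182 and 1113 RPKM in pax5 libraries and 1769, 1833, 1791 and 2097 RPKM in unc22 libraries. The ranges were again separate and in the same order, with replicate 3 the highest sox8 library. The sox8 minus pax5 difference was -2.73 ± 0.23 (SE), or 6.63-fold lower (limma, adjusted p = 7.72e-12). Against unc22, pax5 differed by -0.75 for this feature, which did not pass the test (limma, adjusted p = 0.0518). Replicate 3 was the highest sox8 library for 8 of the 15 features, replicate 1 for 4 and replicate 2 for 3.

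The 68 features with sox8 above unc22 had a median difference from pax5 of 0.24. The largest was SMED30002813, at 24.8, 21.9, 31.0 and 20.4 RPKM in sox8 libraries, 6.09, 13.4, 7.95 and 6.68 RPKM in pax5 libraries and 5.88, 5.82, 12.6 and 7.61 RPKM in unc22 libraries. The pax5 and unc22 libraries overlapped and the sox8 libraries lay above both. The difference was 1.52 ± 0.34 (SE), or 2.86-fold (limma, adjusted p = 0.00317). SMED30030302 had 39.5, 39.0, 53.1 and 33.6 RPKM in sox8 libraries, against 20.8, 29.4, 20.4 and 20.4 RPKM in pax5 and 19.2, 20.5, 25.3 and 23.0 RPKM in unc22 libraries. The sox8 libraries overlapped neither of the others, and the difference was 0.84 ± 0.20 (SE), or 1.79-fold (limma, adjusted p = 0.00673). Without the day 6 libraries over 1 SD on the largest component, a choice made after seeing the data, neither passed the test (limma, adjusted p = 0.0589 for SMED30002813 and 0.104 for SMED30030302). That choice kept only replicates 1 and 2 of the sox8 group.

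The 2-fold features with pax5 above unc22 were of low level, as their median shows. SMED30033320 had 0.503, 0, 0.641 and 0.374 RPKM in sox8 libraries, from 3, 0, 7 and 4 reads, against 2.93, 3.52, 5.24 and 4.05 RPKM in pax5 and 0.660, 1.33, 1.72 and 1.38 RPKM in unc22 libraries. For this feature 3 reads correspond to 0.0986 to 0.978 RPKM over the 48 libraries, so its sox8 levels are near that limit, which covers counting error only. The difference was -2.37 ± 0.30 (SE) (limma, adjusted p = 1.43e-07), and sox8 itself differed from unc22 by -1.04, which did not pass the test (limma, adjusted p = 0.0747). On day 12 both knockdowns passed it, with -1.35 in sox8 and 0.98 in pax5 (limma, adjusted p = 0.0275 and 0.0438). On day 18 pax5 did (1.07) and sox8 did not (-1.09) (limma, adjusted p = 0.0192 and 0.0875).

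SMED30031202 had 1.52, 2.53, 1.30 and 2.29 RPKM in sox8 libraries, 8.20, 7.37, 7.20 and 9.35 RPKM in pax5 libraries and 1.42, 0.920, 1.39 and 1.79 RPKM in unc22 libraries. The pax5 libraries lay above all others. The sox8 minus pax5 difference was -1.85 ± 0.31 (SE), or 3.61-fold lower (limma, adjusted p = 4.35e-05). At equal depth of all libraries it fell just short of the test (limma, adjusted p = 0.0508).

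**Figure D3:**
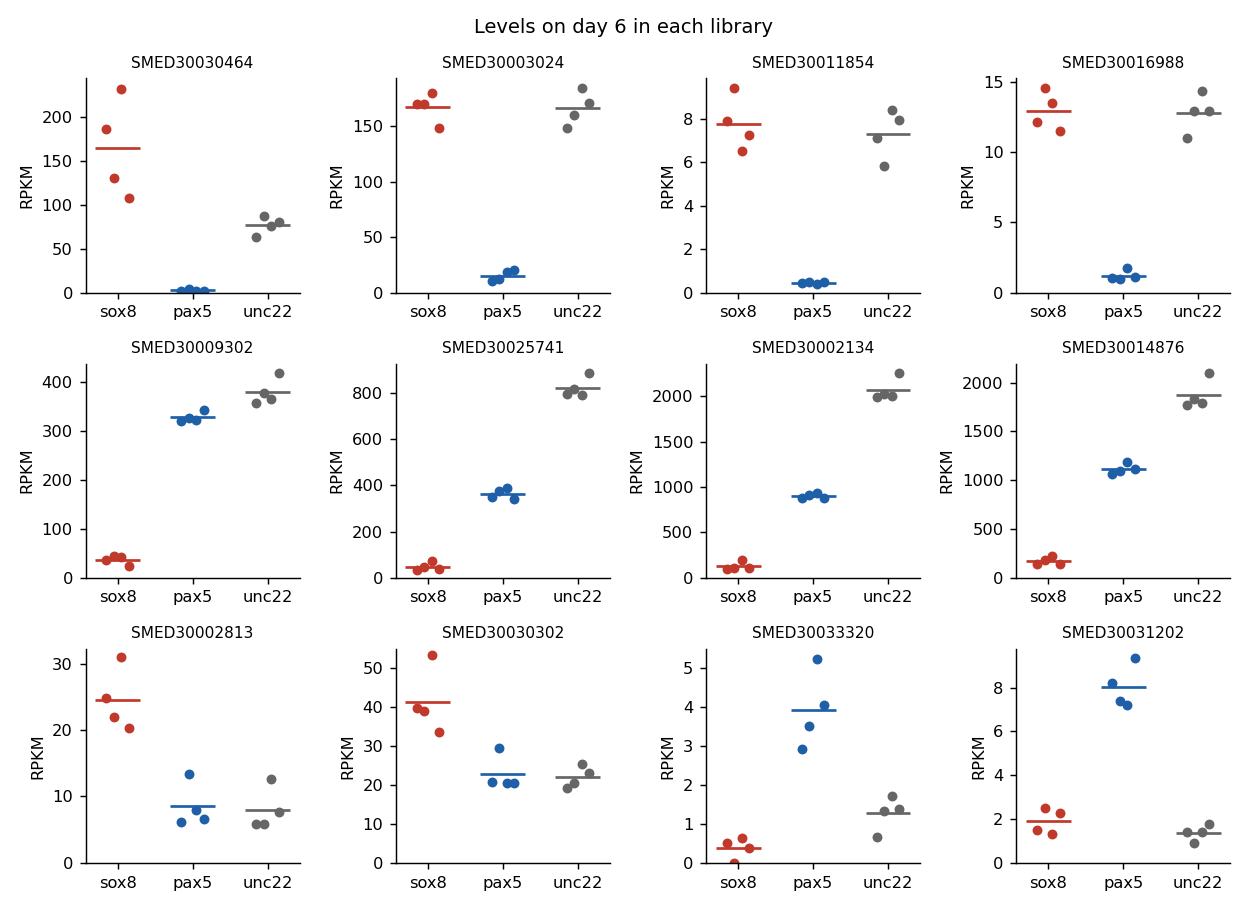
Each panel shows 1 feature on day 6, with the RPKM of the 4 libraries of each group as points and their mean as a line, for sox8, pax5 and unc22 from left to right. In the top row the pax5 libraries lie at the bottom, in the middle row the sox8 libraries do, and in the bottom row sox8 or pax5 lies above both other groups.

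Summed over the 125 higher features, their share of all RPKM in a library was 0.482 ± 0.00810% in sox8, 0.157 ± 0.0115% in pax5 and 0.608 ± 0.0188% in unc22 libraries (SD, n = 4 each). The 28 lower features held 0.0737 ± 0.0142% in sox8, 0.451 ± 0.00684% in pax5 and 0.843 ± 0.0340% in unc22 libraries (SD, n = 4 each). Nearly all of the share of the 28 lay in the 15 features with sox8 below unc22, at 0.0696 ± 0.0143% in sox8, 0.440 ± 0.00684% in pax5 and 0.839 ± 0.0344% in unc22 libraries. These sums weight a feature by its level. Among the 125, SMED30020396 had means of 104 RPKM in sox8, 25.3 RPKM in pax5 and 664 RPKM in unc22 libraries. SMED30035904 had 55.3, 18.7 and 529 RPKM in the same order. Both features thus lay far below unc22 after sox8 RNAi too, and they weigh heavily in the gap between the sox8 and unc22 sums. The median sox8 minus unc22 difference over the 125 was 0.02. Which knockdown lies closer to unc22 in them follows from the placement and is not a further result.

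The precision of the comparison limits what the features that were not called can show. The median standard error of a difference was 0.0978, with quartiles of 0.0617 and 0.175. For 21348 of the 21816 features that were not called (97.9%) the 95% interval of the difference lay within 2-fold in both directions. A larger difference in log2(RPKM + 0.5) thus lay outside their intervals. For low features such an interval can still hold a larger change in RPKM, and 6855 of the tested features had a mean of 0.5 to 2 RPKM. The standard errors and intervals also rest on 1 spread pooled over all 48 libraries. Estimated library weights, lower for a library that varies more, were 1.40, 0.402, 0.405 and 0.708 for sox8 replicates 1 to 4 of day 6. For the pax5 replicates they were 0.960, 1.67, 0.546 and 2.05. With such low weights among the sox8 libraries, the intervals may be too narrow for this comparison. The count of calls depended on the fit and on depth: limma called 544 features when the 8 sox8 and pax5 libraries were fitted alone and 546 with every library thinned to the depth of the shallowest. Without sox8 replicate 3, 353 features were called lower in place of 223. Without the day 6 libraries over 1 SD on the largest component, a choice made after seeing the data, 84 were at least 2-fold lower in place of 28. That choice kept only replicates 1 and 2 of the sox8 group, and replicate 2 was the shallowest library of the study.

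The same contrast was then read on days 12 and 18, in libraries whose levels did not enter the day 6 difference. The days share an estimate of each feature's spread, so a feature with a small spread is favoured for a call on every day. On day 12 limma called 1132 features (4.99%), with 845 higher (3.73%) and 287 lower (1.27%) in sox8 libraries. At least 2-fold differences numbered 205 higher (0.904%) and 31 lower (0.137%). On day 18 it called 1338 features (5.90%), with 921 higher (4.06%) and 417 lower (1.84%), and 243 (1.07%) and 29 (0.128%) at 2-fold. The 2-fold features that were higher in sox8 thus grew in number with time, while those that were lower stayed at 28, 31 and 29.

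Features higher in sox8 on day 6 mostly differed on the later days too. Of the 125 features at least 2-fold higher, 122 were called higher on day 12, 120 at day 18 and 119 both times. Their median difference was 1.53 on day 6, 2.15 on day 12 and 2.24 on day 18. Of the 628 called higher, 473 were called higher on day 12 and 455 on day 18, while 129 were called higher on neither day. Over all 22667 tested features, 813 were called on both days in the direction of their day 6 difference, and 21339 on neither.

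Features lower in sox8 recurred in part. Of the 28 features at least 2-fold lower, 22 were called lower on day 12, 21 at day 18 and 19 both times, with medians of -1.75, -1.67 and -1.76 on days 6, 12 and 18. Of the 223 called lower, 104 were called lower on day 12, 95 on day 18, and 112 were called lower on neither. For all tested features, in either direction, the counts for both days and for neither were the 813 and 21339 given above. By placement, 14 of the 15 features with sox8 below unc22 were called lower on day 12 and 12 on day 18, against 8 and 9 of the 13 with pax5 above unc22. Of the 68 features with sox8 above unc22, 17 were called higher on day 12 and 14 on day 18.

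**Figure D4:**
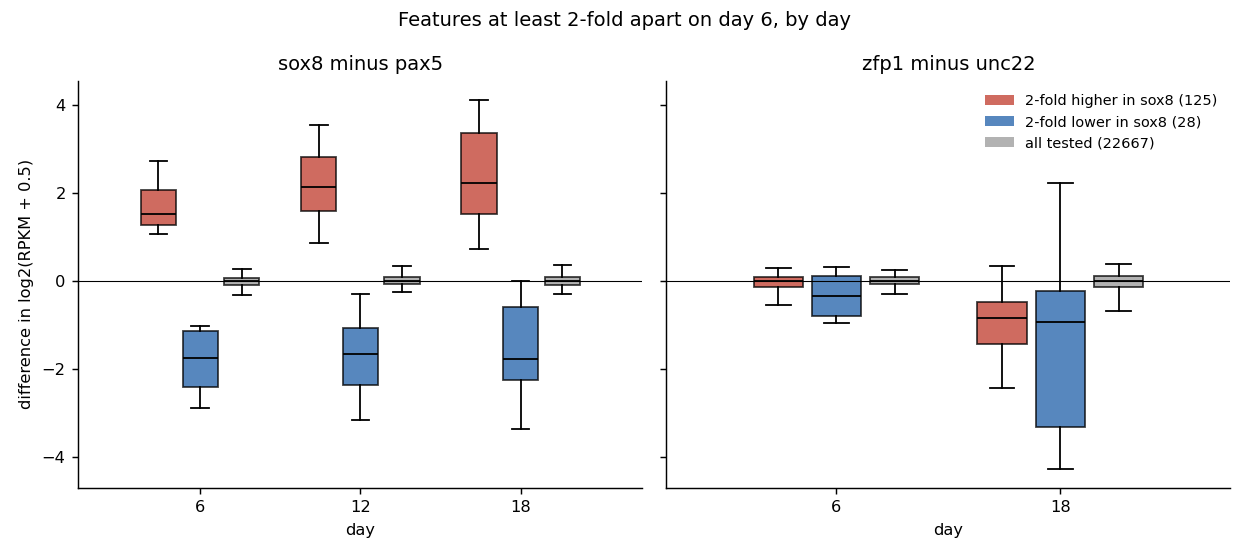
The left panel shows the sox8 minus pax5 difference on days 6, 12 and 18, and the right panel the zfp1 minus unc22 difference on days 6 and 18, both in log2(RPKM + 0.5). Boxes (median and quartiles, whiskers from the 5th to the 95th percentile) stand for the 125 features 2-fold higher on day 6 (red), the 28 that were 2-fold lower (blue) and all 22667 tested (grey). The medians of the 125 are 1.53, 2.15 and 2.24 by day for sox8 minus pax5, and -0.01 and -0.85 for zfp1 minus unc22.

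Of the 4 features that led on day 6, SMED30003024 and SMED30009302 were again among those named on both later days, SMED30030464 on day 12 alone and SMED30025741 on neither. SMED30003024 had the largest positive difference on both, at 5.64 ± 0.15 (SE) on day 12 and 6.70 ± 0.15 on day 18 (limma, adjusted p = 7.41e-30 and 7.21e-33). In the sox8 libraries it stood at 190.1, 168, 179 and 169 RPKM on day 12 and 160.2, 168, 161 and 147 RPKM on day 18. In the pax5 libraries it stood at 2.58, 2.42, 2.86 and 4.65 RPKM on day 12 and 0.928, 1.57, 0.694 and 1.05 RPKM on day 18. The sox8 level thus stayed near that of day 6, and the pax5 level was lower on each later day, down to 5 to 20 reads per library.

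SMED30030464 had the next largest on day 12, at 5.21 ± 0.33 (SE) (limma, adjusted p = 7.61e-16). Its mean level on day 12 was 69.2 ± 22.4 RPKM in sox8, 1.40 ± 0.669 RPKM in pax5 and 57.9 ± 24.0 RPKM in unc22 libraries (SD, n = 4 each). On day 18 the means were 70.4 ± 13.3 RPKM in sox8, 2.07 ± 1.22 RPKM in pax5 and 109 ± 44.7 RPKM in unc22 libraries. The sox8 libraries that had exceeded all unc22 libraries on day 6 no longer did so on the later days. Against unc22 the sox8 difference was 1.04, 0.30 and -0.56 on days 6, 12 and 18, and none of the 3 passed the test (limma, adjusted p = 0.0963, 0.933 and 0.673).

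SMED30023073 had the next largest positive difference on day 18, at 4.92 ± 0.14 (SE) (limma, adjusted p = 4.53e-29). On day 6 it had 45.6, 48.7, 53.8 and 40.5 RPKM in sox8 libraries, against 5.67, 7.30, 9.12 and 10.02 RPKM in pax5 libraries, and on day 18 it had 46.5, 46.8, 37.9 and 41.1 RPKM in sox8 and 1.49, 0.837, 0.754 and 0.768 RPKM in pax5 libraries. The groups did not overlap on either day.

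SMED30009302 kept the largest negative difference, at -3.45 ± 0.17 (SE) on day 12 and -3.66 ± 0.17 on day 18 (limma, adjusted p = 2.8e-20 and 2.11e-21). Its mean was 22.4 ± 1.86 RPKM in sox8, 249 ± 21.7 RPKM in pax5 and 202 ± 16.3 RPKM in unc22 libraries on day 12, and 17.5 ± 3.61, 224 ± 7.79 and 199 ± 10.4 RPKM in the same order on day 18 (SD, n = 4 each). The pax5 minus unc22 difference did not pass the test on any of the 3 days, at -0.21, 0.30 and 0.17 (limma, adjusted p = 0.597, 0.387 and 0.667).

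SMED30008505, with the next largest negative difference on day 12, had 1.96, 2.08, 3.15 and 2.49 RPKM in sox8 libraries of that day, against 30.5, 29.7, 28.9 and 29.0 RPKM in pax5 and 25.7, 23.8, 25.4 and 22.2 RPKM in unc22 libraries. The difference between sox8 and pax5 was -3.38 ± 0.18 (SE) (limma, adjusted p = 1.19e-19). On day 6 it had been -2.55, with means of 5.54 ± 1.93 RPKM in sox8 and 33.8 ± 2.27 RPKM in pax5 libraries (SD, n = 4 each). SMED30014876 came next on day 18, with means of 62.9 ± 7.96 RPKM in sox8, 680.2 ± 26.1 RPKM in pax5 and 988 ± 28.3 RPKM in unc22 libraries (SD, n = 4 each) and a sox8 minus pax5 difference of -3.43 ± 0.23 (SE) (limma, adjusted p = 3.31e-15).

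Whether a difference itself changed between day 6 and day 18 was tested as a contrast of its own. Limma called 366 features (1.61%), of which 280 (1.24%) had a more positive sox8 minus pax5 difference on day 18 and 86 (0.379%) a more negative one. The largest positive change was 3.64 ± 0.16 (SE) for SMED30020726 (limma, adjusted p = 1.32e-20). This feature had 124, 152, 126 and 99.5 RPKM in sox8 libraries on day 6, against 74.8, 88.5, 88.3 and 76.2 RPKM in pax5 libraries. On day 18 it had 142, 139, 152 and 163 RPKM in sox8 and 7.21, 7.15, 7.16 and 8.01 RPKM in pax5 libraries. The groups did not overlap on either day, and the gap between them was 0.60 on day 6 and 4.24 on day 18 on the log2 scale. SMED30003024 came next, with a change of 3.26 ± 0.21 (SE) between the days (limma, adjusted p = 3.03e-15).

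SMED30018762 had the largest negative change, at -2.18 ± 0.21 (SE) (limma, adjusted p = 3.26e-10). On day 6 it had 46.1, 44.8, 42.4 and 37.7 RPKM in sox8 libraries, 10.2, 9.77, 14.6 and 11.2 RPKM in pax5 libraries and 34.0, 38.4, 48.8 and 44.8 RPKM in unc22 libraries. On day 18 all groups were low, with means of 2.80 ± 0.340 RPKM in sox8, 3.61 ± 0.717 RPKM in pax5 and 2.96 ± 0.370 RPKM in unc22 libraries (SD, n = 4 each). The day 6 gap of 1.87 thus had no counterpart on day 12 (-0.09) or day 18 (-0.31), where limma did not call it (adjusted p = 0.932 and 0.313). It is 1 of 2 features of the 125 that were called higher on neither later day.

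SMED30034302 had the next largest negative change, at -1.60 ± 0.34 (SE) (limma, adjusted p = 0.00376). Its means on day 6 were 0.623 ± 0.510 RPKM in sox8, 1.67 ± 0.383 RPKM in pax5 and 0.343 ± 0.0946 RPKM in unc22 libraries, and on day 18 they were 1.44 ± 0.415, 11.5 ± 2.23 and 1.26 ± 0.307 RPKM in the same order (SD, n = 4 each). Its sox8 libraries held 5 to 7 reads each on day 6, and the call was lost with a pseudocount of 0.1, with voom on recovered reads and at equal depth (limma, adjusted p = 0.289, 0.350 and 0.0981).

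**Figure D5:**
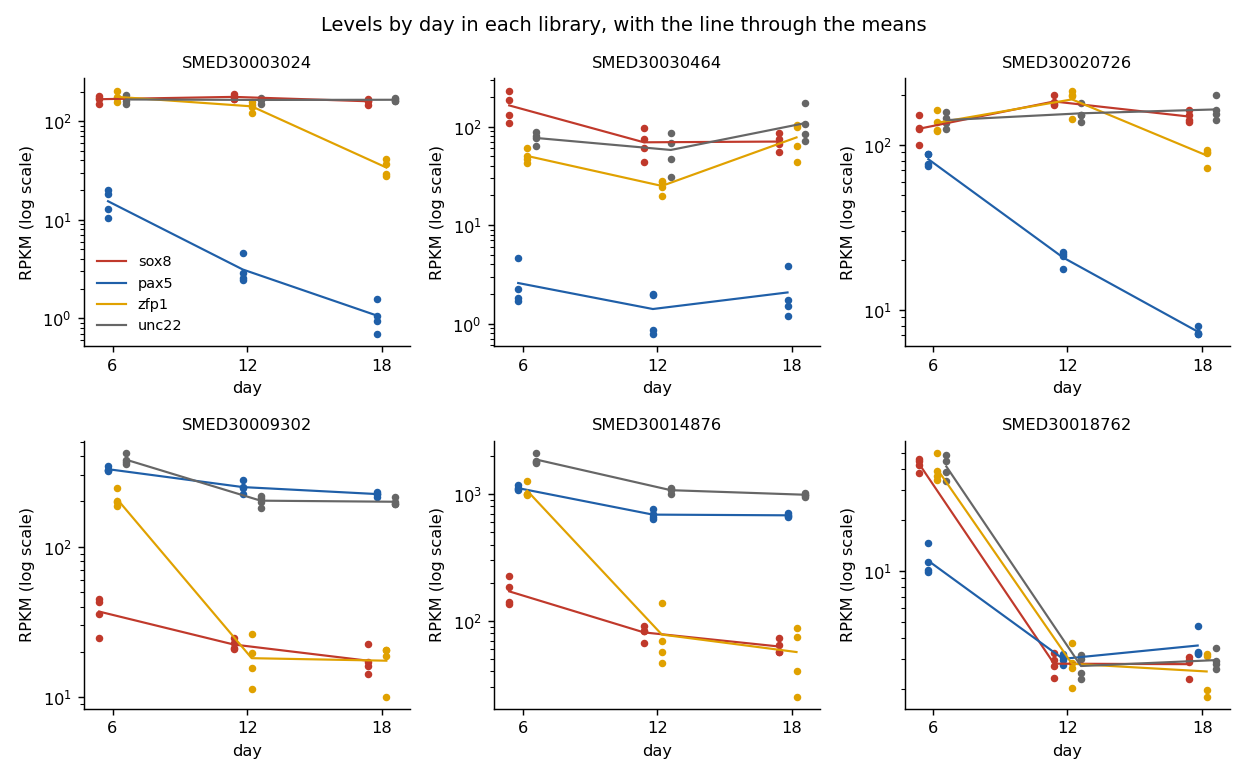
Each panel shows 1 feature, with RPKM on a log scale against the day, 1 point per library and a line through the means of the sox8 (red), pax5 (blue), zfp1 (yellow) and unc22 (grey) groups. SMED30003024 and SMED30020726 are lowest in pax5 libraries on each day, SMED30009302 and SMED30014876 are low in sox8 libraries from day 6 and in zfp1 libraries from day 12, and SMED30018762 is low in every group after day 6.

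The features that separated sox8 from pax5 on day 6 were also read after zfp1 RNAi. The levels in zfp1 libraries did not enter the day 6 difference, but both tests share an estimate of each feature's spread. Against unc22, limma called 165 features higher (0.728%) and 143 lower (0.631%) in zfp1 libraries on day 6, and 2162 higher (9.54%) and 3287 lower (14.5%) on day 18. Of the 125 features higher in sox8 than in pax5, 6 were called lower and 0 higher after zfp1 RNAi on day 6 (median -0.01), and 105 were lower and 7 higher on day 18 (median -0.85). Of the 28 features lower in sox8, 6 were called lower and 0 higher on day 6 (median -0.34), and 16 lower and 4 higher on day 18 (median -0.92). The median over all tested features was 0.00 on day 6 and 0.01 on day 18.

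Among the 28, most calls after zfp1 RNAi fell to the features with sox8 below unc22. Of these 15 features, 6 were called lower on day 6 and 12 on day 18, and their medians were -0.78 and -3.24. The day 6 placement and the zfp1 difference of that day share the unc22 libraries, which those of day 18 do not. Of the 13 features with pax5 above unc22, 4 were called lower and 4 higher after zfp1 RNAi on day 18. SMED30009302 had 246, 202, 197 and 185 RPKM in zfp1 libraries on day 6, 15.6, 11.3, 19.6 and 26.2 RPKM on day 12 and 20.5, 18.8, 20.6 and 10.1 RPKM on day 18, so that zfp1 lay between sox8 and unc22 on day 6 and overlapped sox8 on the later days. SMED30014876 had 1271, 985, 1001 and 995 RPKM in zfp1 libraries on day 6 and 40.1, 74.5, 87.5 and 25.3 RPKM on day 18. For SMED30003024, the zfp1 libraries were at 204, 157, 171 and 175 RPKM on day 6 and 41.7, 36.7, 29.0 and 28.0 RPKM on day 18, above all pax5 libraries of that day.

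The control libraries themselves changed between the sampling days, which bears on levels compared across days. In unc22 libraries of day 18 against those of day 6, limma called 4828 features higher (21.3%) and 3849 lower (17.0%). Of the 15 features with sox8 below unc22, 10 were lower and 0 higher in unc22 on day 18 than on day 6, with a median of -0.83. The placement and this contrast use the same unc22 libraries of day 6, and a high unc22 level on that day favours both, so these counts are a description. Of the 124 features with pax5 below unc22, 41 were higher and 29 lower, with a median of 0.13. The share of the 28 lower features in unc22 libraries was accordingly 0.415 ± 0.0148% on day 18, against 0.843 ± 0.0340% on day 6 (SD, n = 4 each). On day 18 that share was 0.0305 ± 0.00292% in sox8, 0.204 ± 0.0118% in pax5 and 0.0665 ± 0.0259% in zfp1 libraries.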

How the data were processed

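The deposited values are RPKM in 1 table of 28413 features by 48 polyA libraries (TruSeq kit, per the labels' protocols), made by the authors. The submitters' processing notes name CASAVA 1.8.2, Bowtie and edgeR with no role or order. The reference transcripts and the handling of reads that match several features are not given in the sources used here, so features with near-identical copies or overlapping neighbours are uncertain. The shared protocol also names sorted cells, but every sample is labelled as whole worm tissue.

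Dividing out length and depth turned the RPKM values of all 28413 features into whole reads (tolerance 0.0001, largest deviation 3.73e-09). Totals ran from 6894458 to 65663283 reads per library, and 18 pairs of replicates of the sox8, pax5 and unc22 day 6 groups had a chi-square per degree of freedom of 2.17 to 12.4, so that none was a copy. Features with a mean of at least 0.5 RPKM were tested with limma 3.58.1 (R 4.3.3) on log2(RPKM + 0.5), with trend and robust fitting and all 12 groups in 1 model. Two-sided p-values were adjusted by Benjamini-Hochberg within each contrast. Called means an adjusted p under 0.05. The script was tested on simulated data. Reads were used only for depth, floors and alternatives.

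Named features are, in each contrast, the 2 most positive and the 2 most negative differences among called features, and on day 6 the next 2 of each placement. Their higher group had to average at least 1 RPKM and, within a day, the libraries could not overlap. The comparison, its rule and its lists were chosen with earlier results of these data known. Planned longer lists and marker lists needed gene names and were not used. Alternatives covered the pseudocount, the filter, the scaling between libraries, the model, depth, the replicate number and left-out libraries. Python 3.11.15 (numpy 2.4.6, pandas 2.3.3, matplotlib 3.10.9) did the rest.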

Additional observations from a re-analysis of the deposited data

Results flagged for a closer look

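For 5 of the 52 groups of 4 libraries examined for the named features, 1 library lay far from the other 3. Chance alone gives such a gap in about 5% of groups. On day 6 the level of SMED30002134 was 193.8 RPKM in sox8 replicate 3 against 96.0 to 111 RPKM in the other sox8 libraries, and that of SMED30030302 was 29.4 RPKM in pax5 replicate 2 against 20.4 to 20.8 RPKM in the other pax5 libraries. On day 18 SMED30023073 stood at 1.49 RPKM in pax5 replicate 1, SMED30020726 at 8.01 RPKM in pax5 replicate 4 and SMED30018762 at 4.68 RPKM in pax5 replicate 3. The gaps within pax5 libraries of day 18 are small beside the distance to the sox8 libraries for SMED30023073 and SMED30020726.

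The sox8 minus pax5 difference changed between day 6 and day 18, by limma's test of that change, by 3.64 for SMED30020726, 3.26 for SMED30003024, -2.18 for SMED30018762 and -1.60 for SMED30034302 on the log2 scale. The change was positive for SMED30020726 and SMED30003024, whose pax5 level was far lower on day 18 while the sox8 level was not. For SMED30018762 it was negative with all groups, pax5 among them, lower on day 18.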

How the results depend on the processing

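Of 181 recomputed counts of calls, 172 lay within 1.5 times the reported one and 9 did not. On day 6, 851 features became 544 (421 higher, 123 lower) when the compared groups were fitted alone and 546 (407 higher, 139 lower) at equal depth. The 2-fold lower features numbered 17 with a mean of at least 2 RPKM and 84 without the day 6 libraries over 1 SD on the largest component. The latter alternative was added after seeing the data and kept only replicates 1 and 2 of the sox8 group. The change between days had 226 calls at equal depth. The lone fit and equal depth use fewer samples or reads, and otherwise the cause was not tested. Leaving out 1 library at a time gave 700 to 942 calls on day 6, 495 to 756 higher and 180 to 353 lower, the last without sox8 replicate 3. At 2-fold it gave 124 to 132 higher and 22 to 40 lower, and it gave 976 to 1020 calls on day 12, 1133 to 1243 on day 18 and 284 to 427 for the change between days.

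With the replicate number as a block, calls numbered 805 on day 6, 1067 on day 12, 1273 on day 18 and 337 for the change between days. Deviations of same-numbered libraries correlated at 0.00686 to 0.263 on day 6, those of different numbers at -0.297 to 0.238, and same numbers on days 12 and 18 at -0.0504 to 0.0379, so the pairing is not established. Named features kept their direction in all 547 recomputed tests and lost their call in 6: SMED30002813, SMED30030302, SMED30031202 and, for the change between days, SMED30034302 (3 of the 6). Over all alternatives limma's adjusted p ran from 0.000271 to 0.0589 for SMED30002813, 0.000357 to 0.104 for SMED30030302, 2.02e-06 to 0.0508 for SMED30031202 and 5.55e-05 to 0.350 for SMED30034302. Low features and the shallow sox8 replicate 2 limit what depth allows, and the knockdowns could not be checked.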

Other observations

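A few features called on day 6 were called in the opposite direction later. They were picked after their values were seen and are given without a test of the pattern. Of the 223 features lower in sox8 on day 6, 4 were called higher on day 12 and 6 on day 18, against 3.73% and 4.06% of all tested features. Of the 628 higher features 1 was called lower on day 12 and 0 on day 18, against 1.27% and 1.84%. All these shares lie below those over all features. SMED30006900 had the largest turn. Its sox8 minus pax5 difference was -0.44 on day 6, 1.79 on day 12 and 2.54 on day 18 (limma, adjusted p = 0.0223, 1.16e-15 and 4.98e-21). Its mean level was 3.00 RPKM in sox8 and 4.22 RPKM in pax5 libraries on day 6, and 8.25 RPKM in sox8 and 1.02 RPKM in pax5 libraries on day 18. SMED30026425, an abundant feature, stood at 311.7 RPKM in sox8 and 461 RPKM in pax5 libraries on day 6 and at 312 and 215 RPKM in the same order on day 18, with differences of -0.57 and 0.54.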
